A study of Macaca mulatta with 24 samples.

Results

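Genes of the unfolded protein response (UPR), the integrated stress response and the heat shock response were followed in rhesus macaque colon after total-body irradiation (TBI). The set holds 50 listed genes. Of these, 42 were found on the array under their own symbol and 4 (DNAJB1, MANF, CREB3L1 and CREB3L2) through the gene ID behind a LOC number, which gave 46 members among 16058 named genes. DNAJB11, PDIA4, P4HB and HSPA1A were not found by name and were not analysed here. Each member was represented by the probe with the highest mean over the 24 arrays, and all 46 probes passed the filter on dim probes.

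Colon of 24 young-adult male rhesus macaques was profiled on 1-colour Agilent arrays, 1 array per animal, with RNA from whole gut tissue. The unirradiated control group had 4 animals, labelled day 4, and served as the baseline for every day. Groups of 4 animals were taken on day 4 and day 7 after a single dose of 6.7 Gy or 7.4 Gy of cobalt-60 gamma radiation, and groups of 2 on day 12 after either dose. Because whole tissue was measured, fewer cells of a type and less RNA per cell cannot be told apart. The controls were not taken again on days 7 and 12.

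Proteins that fold poorly in the endoplasmic reticulum (ER) are sensed by IRE1 (ERN1 and, in mucosal epithelium, ERN2), PERK (EIF2AK3) and ATF6. IRE1 splices the mRNA of XBP1, and ATF6 is released by cleavage, so that both become transcription factors for ER chaperones such as HSPA5 (BiP). PERK and related kinases phosphorylate eIF2alpha (EIF2S1), which slows translation in general while ATF4 is translated more; ATF4 then switches on genes of amino acid supply and redox balance. The heat shock response is separate. HSF1 drives cytosolic chaperones, whose ER counterparts are largely under other control.

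Values are log2 processed signals relative to the 75th percentile of the array, so that 0 is the signal at that percentile, and levels of different probes are not set against each other. "Rose" and "fell" refer to a Benjamini-Hochberg adjusted p under 0.05 in limma, and "called" to that with at least a 2-fold change as well. The arrays were well above background for 66.74 to 85.02% of probes. They came from 6 slides with 4 positions each, scanned on 2 days. All control arrays lay in position 1, which no day 7 or day 12 array shared, so the position of an array and these later groups cannot be told apart. The 7.4 Gy day 4 arrays, all in position 2, shared no position with the controls either. Every value with position as a block therefore rests, for 7.4 Gy, on the 6.7 Gy day 4 arrays, of which replicates 1 and 2 lay in position 1 and were scanned on the second day and replicates 3 and 4 lay in position 2 and were scanned on the first, and a position effect there cannot be told apart from one of the scan. Labelled colon was checked against its markers: VIL1 and CDX2 were well above background on every array, and FABP2, of the small intestine, on none. FABP2 was 1 of 5 small intestine markers measured. Each of the others was well above background on at least 1 array of every group, so that list does not set colon apart.

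On day 4 the members that passed included 5 of the 7 targets of the integrated stress response at each dose. After 6.7 Gy, 7 of the 46 members rose, against 4.49% of all 38234 probes tested, and 1 fell, against 5.2%. After 7.4 Gy, 9 rose, against 8.33% of all probes, and 2 fell, against 11.7%. With the 2-fold minimum, 5 members were called higher and 1 lower after 6.7 Gy, against 1.83% and 1.78% of all probes, and 6 higher and 2 lower after 7.4 Gy, against 3.36% and 3.68%. The median log2 change of the members was 0.38 after 6.7 Gy and 0.35 after 7.4 Gy, beside -0.07 and -0.08 over all probes.

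**Figure D1:**
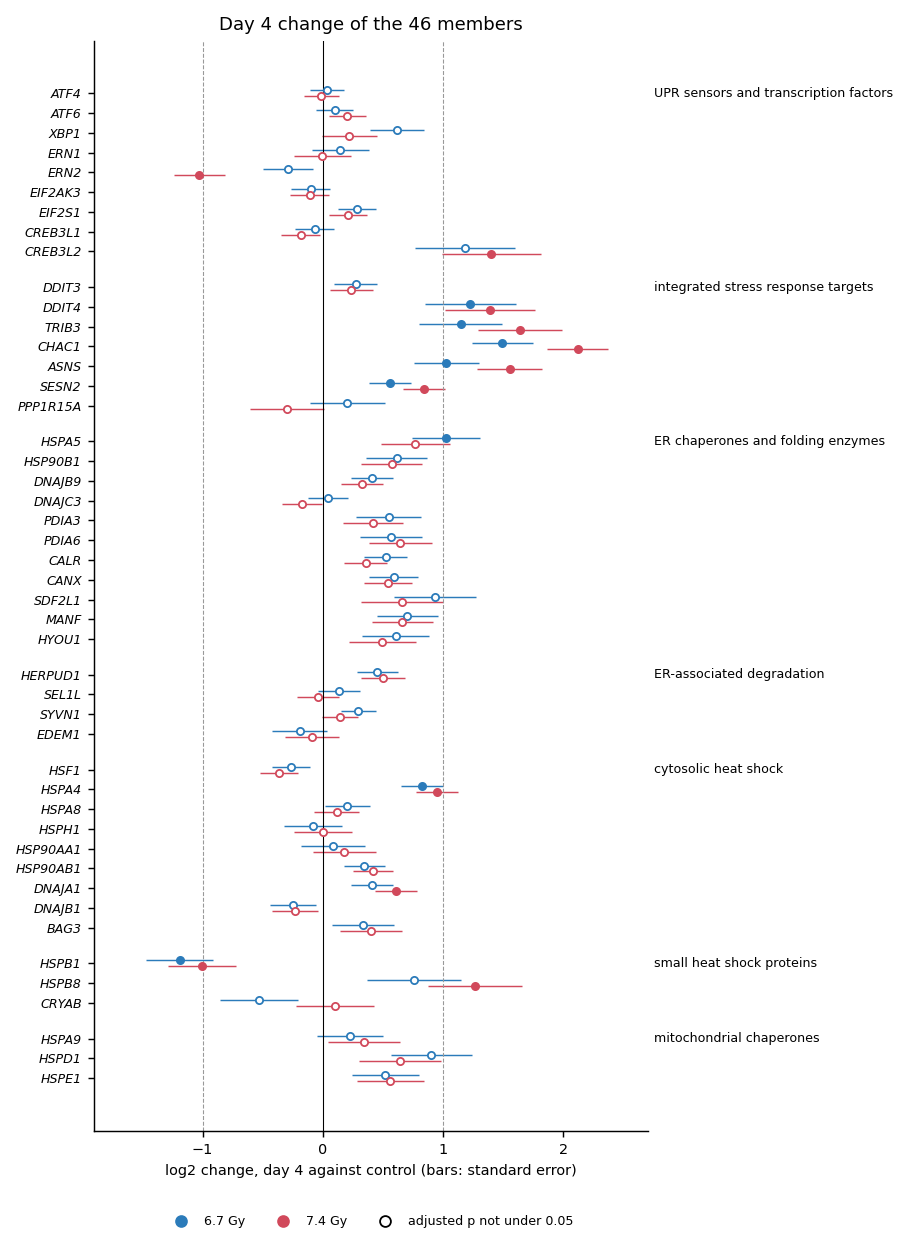
Log2 change on day 4 against control for each of the 46 members, grouped by role, after 6.7 Gy (blue) and 7.4 Gy (red), with the standard error of the fit as bars; filled points passed an adjusted p under 0.05, dashed lines mark a 2-fold change. At each dose 5 of the 7 integrated stress response targets are filled, with CHAC1 at 2.12 after 7.4 Gy, while most ER chaperones lie above 0 with open points.

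Among the 7 integrated stress response targets, 5 rose after each dose: CHAC1, TRIB3, ASNS, DDIT4 and SESN2. The other two, DDIT3 and PPP1R15A, did not pass. The median log2 change of the 7 was 1.03 after 6.7 Gy and 1.39 after 7.4 Gy. It was 0.40 and 0.68 with normexp background correction, and 1.24 and 1.67 with scaling to spike-in probes, which moved the median of all probes to 0.15 and 0.20. Epithelial markers moved on the same day, as given below with ERN2, and their part in these changes was not tested.

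CHAC1, a glutathione-degrading enzyme and a classic ATF4 target, changed most. The control animals measured -1.98, -1.38, -2.03 and -1.31. After 6.7 Gy the day 4 animals measured -0.41, -0.17, -0.54 and 0.40, and after 7.4 Gy 0.59, -0.29, 0.90 and 0.57. Every irradiated day 4 animal lay above every control. CHAC1 rose 2.81-fold after 6.7 Gy (log2 change 1.49, SE 0.25, adjusted p = 0.00199) and 4.35-fold after 7.4 Gy (2.12, SE 0.25, adjusted p = 3.28e-05). The call held without any single array at both doses. With array position as a block it also held at both doses, with log2 changes of 1.38 and 1.90, and with position and scan day together the 7.4 Gy call was lost (adjusted p = 0.130).

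TRIB3, a pseudokinase induced by ATF4 and CHOP that restrains AKT, was measured by a dim probe, not well above background on 1 of the 4 control arrays. Its control values were -3.31, -5.19, -4.03 and -3.89. Day 4 values were -3.45, -2.31, -3.39 and -2.68 after 6.7 Gy and -2.50, -2.89, -1.82 and -2.65 after 7.4 Gy. The 6.7 Gy animals overlapped the brightest control, and the 7.4 Gy animals did not. TRIB3 rose 2.21-fold (log2 change 1.15, SE 0.35, adjusted p = 0.0431) and 3.12-fold (1.64, SE 0.35, adjusted p = 0.00304). The 6.7 Gy call was lost without control replicates 2, 3 or 4 or irradiated replicates 2 or 4 (log2 change 0.78 to 1.41 over the arrays left out), and both were lost with array position as a block (adjusted p = 0.0931 and 0.0719) and with normexp background correction (log2 change 0.32 and 0.59). A second, dimmer TRIB3 probe rose by 1.31 and 1.47.

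ASNS, asparagine synthetase, is induced by ATF4 when amino acids are scarce. The controls measured 0.14, 0.49, -0.21 and 0.53. After 6.7 Gy the values were 0.85, 1.58, 0.72 and 1.89, and after 7.4 Gy 2.03, 1.47, 1.89 and 1.76. Neither irradiated group overlapped the controls. ASNS rose 2.04-fold (log2 change 1.03, SE 0.27, adjusted p = 0.0224) and 2.94-fold (1.55, SE 0.27, adjusted p = 0.000687). The 6.7 Gy call was lost without control replicates 1 or 3 or irradiated replicates 2 or 4 (log2 change 0.82 to 1.20), and with array position as a block both were lost (adjusted p = 0.0946 and 0.0686).

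DDIT4 (REDD1) and SESN2 (sestrin 2) both restrain mTORC1, and p53 as well as ATF4 can induce them. DDIT4 measured -0.08, 0.26, 0.25 and -1.08 in controls, 0.87, 0.94, 1.05 and 1.39 after 6.7 Gy and 1.71, 0.36, 1.34 and 1.5 after 7.4 Gy. The groups did not overlap, although the lowest 7.4 Gy animal lay just above the highest control. DDIT4 rose 2.34-fold (log2 change 1.23, SE 0.38, adjusted p = 0.0450) and 2.62-fold (1.39, SE 0.38, adjusted p = 0.0142). The 6.7 Gy call was lost without any 1 array of the pair of groups except control replicate 2 (log2 change 0.92 to 1.37, adjusted p up to 0.144), and the 7.4 Gy call without control replicate 4 or irradiated replicate 1 (1.08 to 1.68 over all arrays left out). Both were lost with array position as a block (adjusted p = 0.194 and 0.353). A second DDIT4 probe rose by 1.26 and 1.30. SESN2 rose by less, 0.56 (SE 0.17, adjusted p = 0.0474) and 0.84 (SE 0.17, adjusted p = 0.00250), with no overlap at either dose.

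ATF4 itself, DDIT3, PPP1R15A, EIF2AK3 and EIF2S1 did not pass on day 4. ATF4 mRNA, whose product is set largely by translation, averaged 6.04 ± 0.23 (SD, n = 4) in controls, 6.07 ± 0.18 after 6.7 Gy and 6.02 ± 0.07 after 7.4 Gy, a log2 change of 0.04 and -0.01 (SE 0.14). DDIT3 (CHOP), the pro-apoptotic factor of the PERK branch, averaged 0.32 ± 0.17, 0.59 ± 0.41 and 0.55 ± 0.20, and the groups overlapped. PPP1R15A (GADD34), which returns a phosphatase to eIF2alpha, had log2 changes of 0.20 and -0.30. The kinase PERK (EIF2AK3) and its substrate EIF2S1 had changes between -0.11 and 0.29, and none passed.

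**Figure D2:**
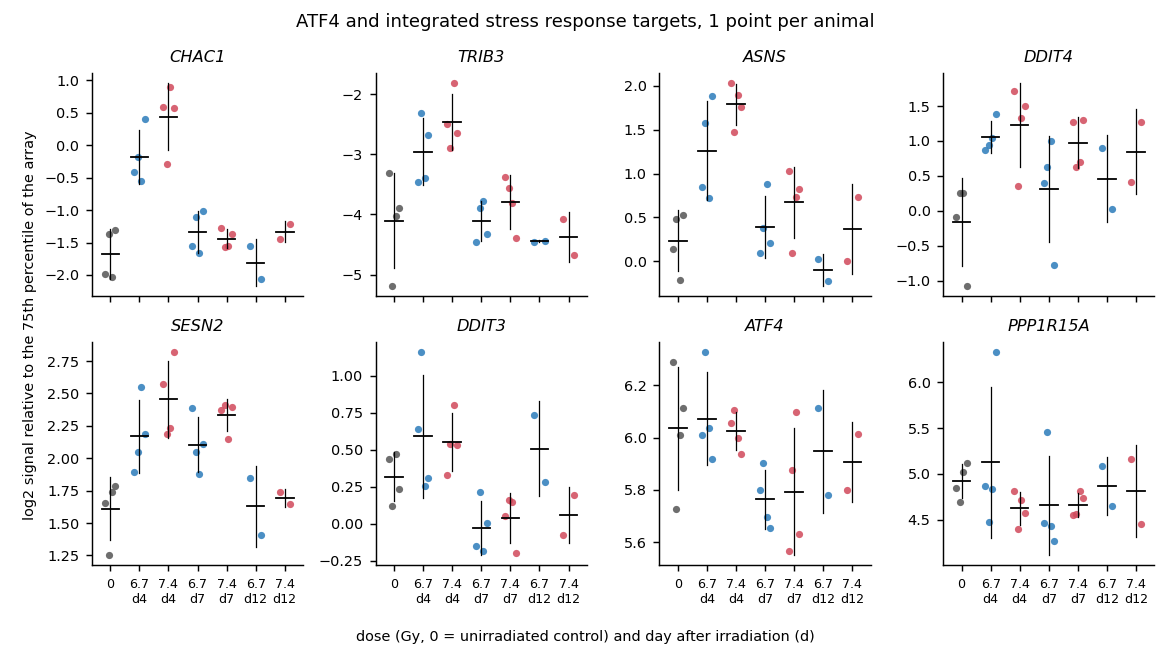
Log2 signal relative to the 75th percentile of the array for ATF4 and the 7 integrated stress response targets, 1 point per animal, in controls (grey), after 6.7 Gy (blue) and after 7.4 Gy (red); horizontal lines are group means and vertical lines the SD. CHAC1, TRIB3 and ASNS are highest on day 4 and near the control level on days 7 and 12, and ATF4 averaged 6.04 in controls and 6.02 on day 4 after 7.4 Gy.

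Nearly all ER chaperones and folding enzymes had a higher mean than the controls on day 4, but only HSPA5 passed, after 6.7 Gy. Of the 11 measured, 11 had a log2 change above 0 after 6.7 Gy and 10 after 7.4 Gy, with medians of 0.59 and 0.54. All irradiated animals lay above all controls for 6 of the 11 after 6.7 Gy and for 5 after 7.4 Gy. Over all 46 members this held for 15 and 14. The share of all probes separated in this way was not counted, so these counts have no baseline. HSPA5, the main ER chaperone and the gene most used to read the UPR, measured 2.86, 3.11, 2.49 and 3.08 in controls, 3.91, 3.93, 3.85 and 3.95 after 6.7 Gy and 3.86, 3.30, 3.91 and 3.54 after 7.4 Gy. Both irradiated groups lay above all controls. It rose 2.03-fold after 6.7 Gy (log2 change 1.02, SE 0.29, adjusted p = 0.0293) and its change after 7.4 Gy was 0.77 (SE 0.29, adjusted p = 0.0632). The 6.7 Gy call was lost without control replicates 1 or 3 or any single irradiated replicate (log2 change 0.89 to 1.1, adjusted p up to 0.0844), and with array position as a block (1.03, adjusted p = 0.0988). Dimmer HSPA5 probes changed by 0.66 to 0.81 and did not pass.

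The other ER chaperones did not pass. After 6.7 Gy they had log2 changes from 0.04 for DNAJC3, an HSP40 cochaperone that also inhibits PERK, to 0.94 for SDF2L1, a partner of BiP. Between them lay MANF, a secreted UPR target, at 0.70, HSP90B1 (GRP94) at 0.61, HYOU1, a nucleotide exchange factor for BiP, at 0.60, and the lectin chaperones CANX and CALR at 0.59 and 0.52. Of the 4 genes of ER-associated degradation, which return misfolded proteins to the cytosol, none passed at either dose. HERPUD1, a scaffold of the retrotranslocation complex, had the largest change, 0.45 (SE 0.17, adjusted p = 0.103) and 0.50 (SE 0.19, adjusted p = 0.0657), the latter over 3 animals since 1 spot was marked as an outlier. The controls measured 3.77, 4.16, 4.23 and 4.12, and after 6.7 Gy the values were 4.61, 4.33, 4.46 and 4.69, with no overlap. After 7.4 Gy they were 4.89, 4.61 and 4.21, overlapping the controls. SEL1L, SYVN1 and EDEM1 had changes between -0.19 and 0.29.

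Of the 9 UPR sensors and transcription factors, none passed after 6.7 Gy, and CREB3L2 rose and ERN2 fell after 7.4 Gy. XBP1, whose transcript is both induced and spliced in the UPR, had log2 changes of 0.61 (adjusted p = 0.0890) and 0.22. The array does not separate spliced from unspliced XBP1. ATF6 had changes of 0.10 and 0.20 and ERN1 of 0.15 and -0.00, with ERN1 not well above background on 1 control array.

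ERN2 (IRE1beta) is a sensor of mucus-secreting epithelium. It measured -1.93, -1.62, -2.12 and -1.84 in controls, -2.13, -2.57, -1.98 and -2.01 after 6.7 Gy and -3.09, -2.45, -3.02 and -3.06 after 7.4 Gy. The 7.4 Gy animals all lay below the controls, and the 6.7 Gy animals overlapped them. ERN2 fell 2.04-fold after 7.4 Gy (log2 change -1.03, SE 0.21, adjusted p = 0.00221), while its change after 6.7 Gy was -0.29 (adjusted p = 0.400). Since the fold lay close to 2, the call was lost without control replicate 2 or 7.4 Gy replicates 1, 3 or 4 (log2 change -1.18 to -0.94, adjusted p up to 0.01) and with normexp, quantile, median or spike-in scaling and the slide or scan day block (-0.96 to -0.74). With the array position block the change was -1.38 (adjusted p = 0.0224), and adding the scan day to that block left it not passing (adjusted p = 0.152). Markers of the epithelium fell after 6.7 Gy as well, where ERN2 did not pass. Over all probes 5.2% fell after 6.7 Gy and 11.7% after 7.4 Gy. Of 7 colon epithelium markers measured, 5 fell after 6.7 Gy and 6 after 7.4 Gy, and their summed linear signal, in multiples of the 75th percentile, ranged from 573 to 732 in controls, 260 to 390 after 6.7 Gy and 172 to 319 after 7.4 Gy. Of 7 goblet cell markers, 1 fell after 6.7 Gy and 3 after 7.4 Gy, with summed signals of 345 to 460, 170 to 302 and 55.3 to 309. Absorptive colonocyte markers fell for 6 of 8 and 7 of 8. All colon epithelium markers stayed above background on at least 1 array of each group. Their part in the change of ERN2 was not tested.

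CREB3L2, an ER-tethered factor of secretory capacity in matrix-secreting cells, rested on 1 control. The controls measured -7.37, -4.79, -4.85 and -5.11, with the first not well above background, and the 7.4 Gy animals -3.97, -4.13, -4.21 and -4.21, all higher. It rose by 1.40 (SE 0.41, adjusted p = 0.0223) after 7.4 Gy. Without control replicate 1 the change was 0.79 (adjusted p = 0.0457), under the 2-fold minimum, and the call was also lost without 7.4 Gy replicate 1. With array position as a block the change was 0.75 (adjusted p = 0.581). Fibroblast markers rose for 5 of 7 after 7.4 Gy, with summed signals of 116 to 272 in controls and 256 to 364 after 7.4 Gy, and their part was not tested. The related CREB3L1 had changes of -0.07 and -0.18.

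Few cytosolic heat shock genes passed on day 4. Of 9 measured, HSPA4 rose after each dose and DNAJA1 after 7.4 Gy, and none fell or was called. HSPA4 (APG-2), a nucleotide exchange factor for HSP70, measured 2.14, 2.23, 2.34 and 2.69 in controls, 3.22, 3.39, 3.03 and 3.06 after 6.7 Gy and 3.47, 3.09, 3.33 and 3.30 after 7.4 Gy, with no overlap. It rose 1.77-fold (log2 change 0.83, SE 0.17, adjusted p = 0.00661) and 1.93-fold (0.95, SE 0.17, adjusted p = 0.000974). DNAJA1, an HSP40 partner of HSP70, rose 1.53-fold after 7.4 Gy (log2 change 0.61, SE 0.18, adjusted p = 0.0204). Dependence on single arrays and on the position block was followed only for called changes, so not for the day 4 rises of HSPA4, DNAJA1 and SESN2. HSF1, the master factor, had changes of -0.26 and -0.37 and did not pass. The inducible HSP40 DNAJB1 (-0.25 and -0.23), the cochaperone BAG3 (0.33 and 0.40), HSP90AA1 (0.08 and 0.18) and HSPA8 (0.20 and 0.11) did not pass either. Probes disagreed for some genes: a dimmer HSP90AB1 probe rose by 0.59 at each dose, where the representative probe changed by 0.35 and 0.42 without passing, and a dimmer HSPH1 probe changed by 0.69 and 0.75, not passing, where the representative probe changed by -0.08 and 0.00.

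The small heat shock proteins moved in opposite directions. HSPB1 (HSP27), an actin-protecting chaperone abundant in gut muscle and epithelium, measured 6.81, 5.60, 6.49 and 6.26 in controls, 5.41, 5.74, 4.91 and 4.33 after 6.7 Gy and 5.24, 5.59, 5.22 and 5.10 after 7.4 Gy. The 6.7 Gy animals overlapped the lowest control, and the 7.4 Gy animals lay just below it. HSPB1 fell 2.29-fold after 6.7 Gy (log2 change -1.19, SE 0.28, adjusted p = 0.0131) and 2.01-fold after 7.4 Gy (-1.004, SE 0.28, adjusted p = 0.0174). The 6.7 Gy call was lost without irradiated replicate 4 (log2 change -0.94) and the 7.4 Gy call without control replicates 1 or 3 or irradiated replicates 1, 3 or 4 (-1.23 to -0.83 over all arrays left out), and the 7.4 Gy fold was also under 2 with quantile, median or spike-in scaling. With array position as a block the changes were -0.72 (adjusted p = 0.169) and -0.05 (adjusted p = 0.960). Smooth muscle markers did not pass for any of 6 at either dose, with summed signals of 586 to 930 in controls, 265 to 926 after 6.7 Gy and 604 to 759 after 7.4 Gy. Colon epithelium markers fell for 5 and 6 of 7 and absorptive colonocyte markers for 6 and 7 of 8, with the summed signals given above for the former. The part of either tissue in the change of HSPB1 was not tested.

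HSPB8, which works with BAG3 in clearing aggregated protein, measured 0.67, 0.37, -0.27 and -0.74 in controls, 1.74, 1.46, 0.30 and -0.43 after 6.7 Gy and 0.71, 1.76, 1.19 and 1.43 after 7.4 Gy. The lowest 7.4 Gy animal lay just above the highest control, and the 6.7 Gy animals overlapped the controls. HSPB8 rose 2.40-fold after 7.4 Gy (log2 change 1.26, SE 0.39, adjusted p = 0.0284), and its change after 6.7 Gy was 0.76 (adjusted p = 0.229). The call was lost without control replicates 3 or 4 or irradiated replicates 2, 3 or 4 (log2 change 1.01 to 1.48, adjusted p up to 0.0991). The change varied with the scan day: after 6.7 Gy the change was -0.59 between the arrays of the first scan day and 2.11 between those of the second, with 2 animals against 2 in each. All 7.4 Gy day 4 arrays were scanned on the second day, where the change was 1.78 against 2 controls. The scan day block ended the call (log2 change 1.14). The change of 2.93 with the array position block rests on the same 6.7 Gy arrays, split by scan day as above, and is not a change within a position. CRYAB, of the same family, had changes of -0.53 and 0.10 and did not pass.

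**Figure D3:**
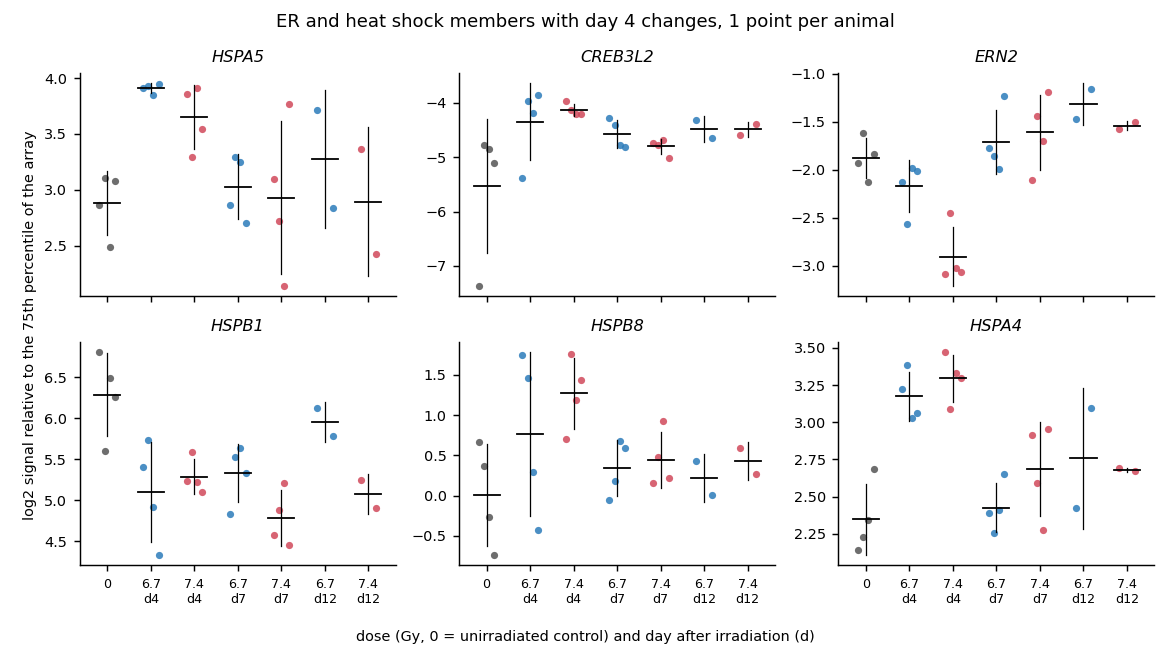
Log2 signal relative to the 75th percentile of the array for HSPA5, CREB3L2, ERN2, HSPB1, HSPB8 and HSPA4, 1 point per animal, in controls (grey), after 6.7 Gy (blue) and after 7.4 Gy (red); horizontal lines are group means and vertical lines the SD. The low control of CREB3L2 at -7.37 stands apart, HSPA4 is separated from controls at both doses on day 4, and HSPB1 stays below the control mean on day 7.

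Of the mitochondrial chaperones, HSPD1 (HSP60) had log2 changes of 0.90 (SE 0.34, adjusted p = 0.0978) and 0.64 (adjusted p = 0.191), with controls at 4.44, 3.84, 4.14 and 3.66 and overlapping values of 5.32, 4.22, 5.06 and 5.10 after 6.7 Gy. Its cochaperonin HSPE1 had 0.52 and 0.56 and HSPA9 (mortalin) 0.23 and 0.34. None of the 3 passed.

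Further genes of the same pathways, listed beside the members, were counted in the same fit. Over all probes tested, 4.49% rose and 5.2% fell after 6.7 Gy, and 8.33% rose and 11.7% fell after 7.4 Gy. Of 19 other integrated stress genes measured, 4 rose and 2 fell after each dose. GDF15, a stress-induced hormone that p53 also drives, rose by 4.66 (adjusted p = 2.78e-06) and 4.90 (adjusted p = 5.71e-07) on the log2 scale. It was the only one of the 19 still higher on day 7, by 1.99 and 1.80. SLC7A11, the cystine importer, rose by 2.08 and 2.58, PSAT1, of serine synthesis, by 1.39 and 1.67, and CEBPB, a partner of ATF4, by 1.28 and 1.05. SLC7A11 was well above background on 1 control array. CEBPG fell (-0.60 and -0.71), as did EIF2AK1 (HRI), the heme-regulated eIF2alpha kinase (-0.57 and -1.02). Of 37 other ER genes, 5 rose after 6.7 Gy, and 6 rose and 1 fell after 7.4 Gy. ERO1L, the oxidase that drives disulphide formation, changed most, by 1.38 and 2.02, and SEC61A1, the translocation channel, rose by 0.92 and 1.03. Of 32 other heat shock genes and cochaperones, 4 rose after 6.7 Gy and 12 after 7.4 Gy, and none fell. The 12 included 6 subunits of the CCT chaperonin, which folds actin and tubulin (TCP1, CCT2, CCT3, CCT4, CCT5 and CCT8, by 0.43 to 1.04).

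No member passed between the doses. In the comparison of 7.4 with 6.7 Gy, limma passed 0 of 46 members for day 4, 0 of 46 for day 7 and 0 of 45 for day 12, beside 0.0% of all probes each time. Separate tests per probe also called none. Over all probes 2360 of 38234 had an unadjusted p under 0.05 for day 4, 710 of 38234 for day 7 and 1401 of 38214 for day 12. Among the members there were 2 for day 4, 0 for day 7 and 4 for day 12. On day 4 the 2 were ERN2 (log2 difference -0.73, SE 0.21, adjusted p = 0.494) and CHAC1 (0.63, SE 0.25, adjusted p = 0.734). Among the integrated stress response targets, CHAC1, TRIB3, ASNS, DDIT4, SESN2 all had higher means after 7.4 Gy than after 6.7 Gy, by 0.16 to 0.63, and no such difference passed.

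On day 7 a single member passed against the controls. After 6.7 Gy 0 of 46 members passed in limma (0.392% of all probes did). At an unadjusted p under 0.05 there were 6, beside 3678 of 38234 probes. After 7.4 Gy 1 of 46 passed, against 0.523% of all probes. It was HSPB1, at 4.57, 4.88, 5.21 and 4.46, below every control. It fell 2.85-fold (log2 change -1.51, SE 0.28, adjusted p = 0.0196), and the call was lost without control replicates 3 or 4 or irradiated replicates 1 or 4 (log2 change -1.74 to -1.34, adjusted p up to 0.0980). After 6.7 Gy HSPB1 had a change of -0.96 (adjusted p = 0.176) on day 7. The day 12 groups passed 0 of 45 members after 6.7 Gy and 0 of 46 after 7.4 Gy in limma, beside 0.0183% and 0.0262% of all probes. With 2 animals per group, 2 of 45 and 9 of 46 members had an unadjusted p under 0.05. Over all probes the counts were 2719 of 38215 and 2629 of 38233. SESN2 on day 7 measured 2.39, 2.05, 1.88 and 2.11 after 6.7 Gy and 2.38, 2.41, 2.15 and 2.40 after 7.4 Gy, above all controls (1.66, 1.25, 1.74 and 1.79), and did not pass (adjusted p = 0.305 and 0.0706). DDIT4 had means of 0.98 ± 0.36 (SD, n = 4) on day 7 and 0.85 ± 0.61 (SD, n = 2) on day 12 after 7.4 Gy, against -0.16 ± 0.63 (SD, n = 4) in controls, and neither difference passed (adjusted p = 0.222 and 0.701).

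**Figure D4:**
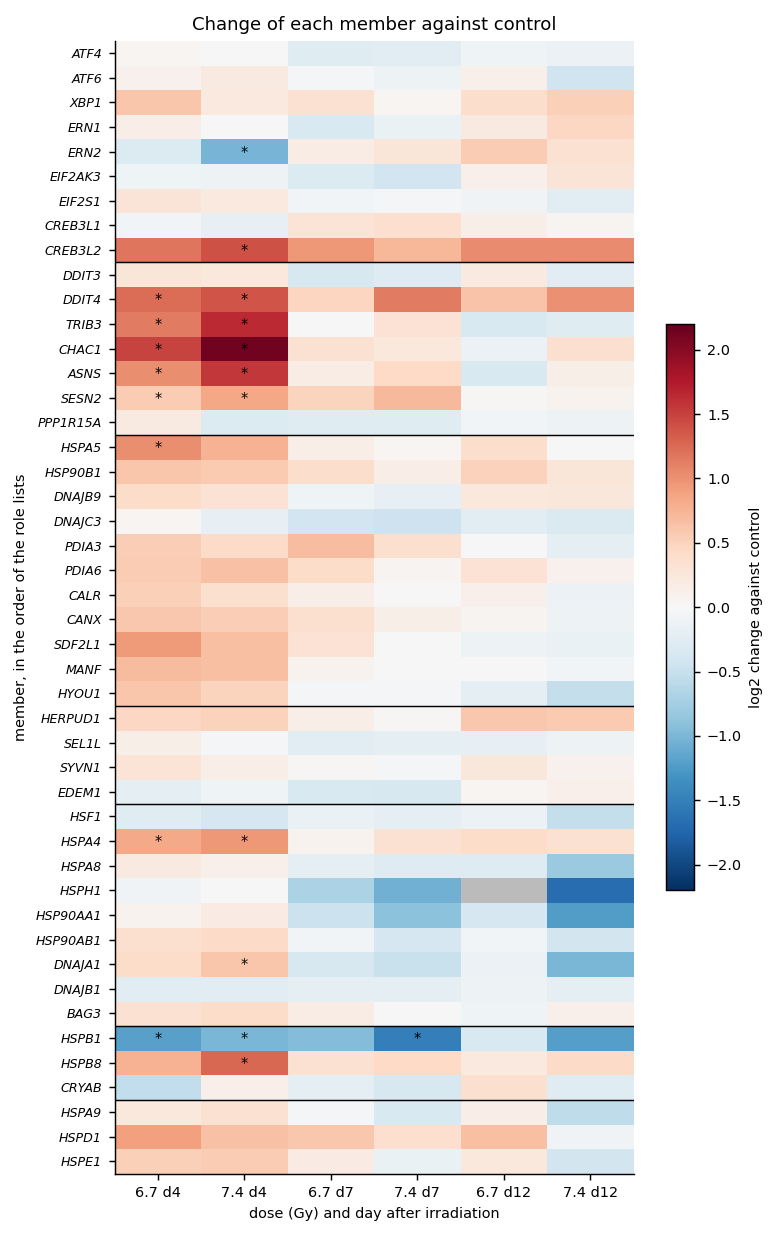
Log2 change of each of the 46 members against control in the 6 irradiated groups, in the order of the role lists separated by lines; red is higher and blue lower, a star marks an adjusted p under 0.05 and grey a value that could not be fitted. The day 4 columns hold 5 stars each among the integrated stress response targets, 1 star (HSPB1) remains on day 7 and none on day 12.

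The later days were then set against day 4 over both doses, with 8 animals on day 4, 8 on day 7 and 4 on day 12. On day 7, 18 of the 46 members were lower than on day 4, against 11.3% of all probes, and 2 were higher, against 14.6%. With the 2-fold minimum 2 were lower and 0 higher, against 2.06% and 2.37%. On day 12, 16 of 45 were lower, against 9.92% of all probes, and 1 higher, against 14.5%; with the 2-fold minimum 4 were lower and 1 higher, against 2.68% and 3.83%. The medians of the members were -0.37 and -0.40, beside 0.07 and 0.11 over all probes. Between day 12 and day 7 none of 45 passed in limma, beside 0.191% of all probes. At an unadjusted p under 0.05 there were 7, beside 3667 of 38214 probes. The comparisons with day 4 share the day 4 animals, and array position and day cannot be told apart in them.

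CHAC1 was 2.86-fold lower on day 7 than on day 4 (log2 change -1.52, SE 0.18, adjusted p = 2.22e-05) and 3.25-fold lower on day 12 (-1.70, SE 0.22, adjusted p = 5.04e-05), with no overlap in either case. TRIB3 changed by -1.24 (SE 0.25, adjusted p = 0.00132) and -1.70 (SE 0.30, adjusted p = 0.000607), and ASNS by -0.99 (SE 0.19, adjusted p = 0.00104) and -1.39 (SE 0.23, adjusted p = 0.000405), each lower on the later day. Under normexp the TRIB3 changes were under 2-fold (-0.58 and -0.65). The TRIB3 probe was well above background on only 1 of the 2 arrays of each day 12 group. DDIT4 did not pass in either comparison. SESN2 did not pass on day 7 (log2 change -0.09) and was 1.57-fold lower on day 12 (adjusted p = 0.00440), and DDIT3 was 1.48-fold lower on day 7 (adjusted p = 0.00316). ERN2 went the other way, 1.84-fold higher on day 7 (log2 change 0.88, adjusted p = 0.000356) and 2.16-fold higher on day 12 (1.11, adjusted p = 0.000308). Colon epithelium markers were higher on day 7 than on day 4 for 6 of 7 and goblet cell markers for 6 of 7, against 14.6% of all probes. The part of these markers was not tested.

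ER chaperones were lower after day 4 for 6 of 11 members on day 7 and for 6 of 11 on day 12. Over all probes 11.3% and 9.92% were lower. HSPA5 was 1.74-fold lower on day 7 (log2 change -0.80, SE 0.20, adjusted p = 0.00699) and 1.62-fold lower on day 12 (adjusted p = 0.0461). MANF, HYOU1 and CALR passed on both days, DNAJB9 and DNAJC3 on day 7, and SDF2L1 (log2 change -0.93, adjusted p = 0.0271) and CANX on day 12. Outside the chaperones, EIF2S1 was lower on both days (log2 change -0.31 and -0.40), HERPUD1 was lower on day 7 (-0.38, adjusted p = 0.0332) and CREB3L1 higher on day 7 (0.46, adjusted p = 0.00619).

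Cytosolic heat shock genes were lower on day 7 than on day 4 for 6 of 9 members, against 11.3% of all probes. None was lower by 2-fold in the representative probe. The day 4 rise of these probes over control had passed for only HSPA4 and DNAJA1. DNAJA1 changed by -0.93 from day 4 to day 7 (SE 0.12, adjusted p = 6.17e-05) and by -1.08 to day 12 (SE 0.15, adjusted p = 9.55e-05) on the log2 scale. After 6.7 Gy the day 4 animals measured 3.44, 3.18, 3.07 and 3.01, those of day 7 2.40, 2.40, 2.55 and 2.29, and the day 12 pair 2.67 and 2.59. After 7.4 Gy the day 4 animals measured 3.59, 3.21, 3.55 and 3.15, those of day 7 2.36, 2.2, 1.77 and 2.80, and the day 12 pair 2.01 and 1.5. The controls measured 2.82, 2.63, 2.76 and 2.84. The day 7 and day 12 animals did not overlap those of day 4. Without 7.4 Gy day 12 replicate 2 the day 12 change was -0.96, under the 2-fold minimum.

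HSP90AA1, the stress-inducible cytosolic HSP90, was lower on day 7 than on day 4 (log2 change -0.82, SE 0.19, adjusted p = 0.00339), and HSP90AB1, the constitutive form, likewise (-0.60, adjusted p = 0.00121). HSPA8, the constitutive HSP70, was lower too (-0.41, adjusted p = 0.0295), as was HSPH1 (HSP110; -0.84, adjusted p = 0.00442), the latter over 6 animals against 6 since spots were marked as outliers. The dimmer HSPH1 probe was lower by more than 2-fold, with -1.08 on day 7 (adjusted p = 0.000515) and -1.02 on day 12 (adjusted p = 0.00395). Against the controls the representative probes of these genes did not pass on any day, while the dimmer HSP90AB1 probe rose on day 4 as given above. On day 12 after 7.4 Gy the 2 animals measured 4.41 and 3.70 for HSP90AA1 against 6.01, 5.06, 5.05 and 5.03 in controls, 5.49 and 5.0 for HSPA8 against 6.18, 5.92, 6.07 and 6.05, and 2.01 and 1.5 for DNAJA1, all below every control. The log2 changes were -1.23 (adjusted p = 0.275), -0.81 (adjusted p = 0.331) and -1.01 (adjusted p = 0.128). After 6.7 Gy on day 12 the changes were -0.36, -0.28 and -0.13. HSF1 and the representative probe of DNAJB1 had changes of 0.14 and 0.04 between day 7 and day 4 and did not pass, while the dimmer DNAJB1 probe was lower (-0.40, adjusted p = 0.0112). HSPA4 was 1.60-fold lower on day 7 than on day 4 (adjusted p = 0.000598), without overlap. Among the 32 other heat shock genes and cochaperones 18 were lower on day 7, against 11.3% of all probes, and none higher, against 14.6%. CHORDC1, an HSP90 cochaperone, was at -0.83.

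**Figure D5:**
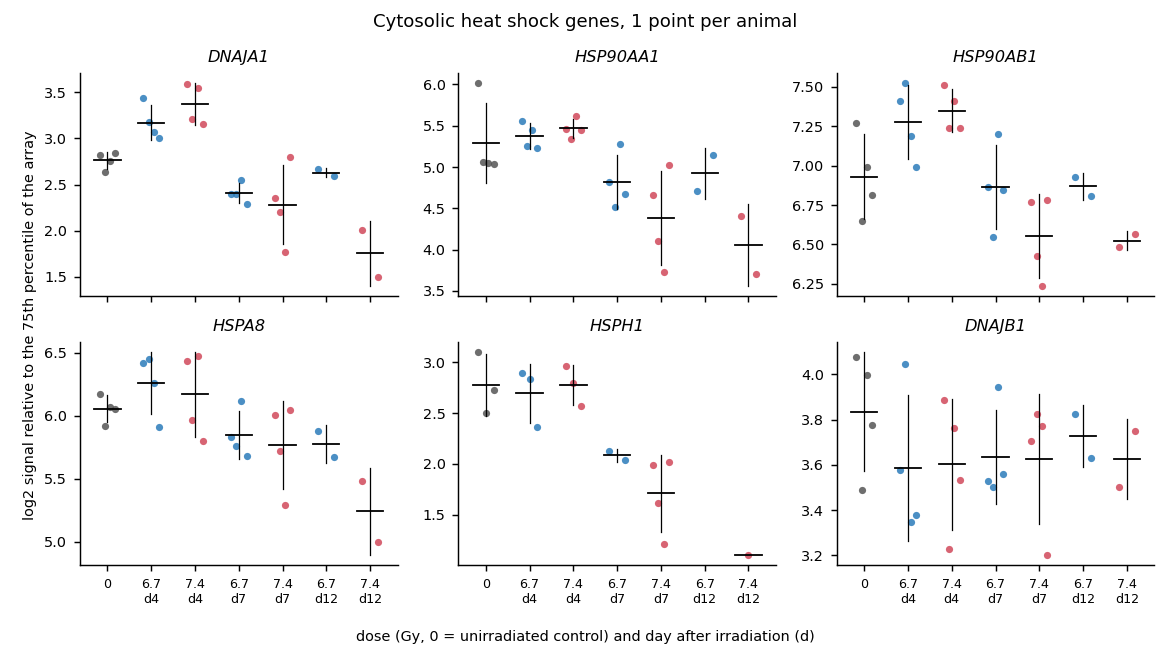
Log2 signal relative to the 75th percentile of the array for DNAJA1, HSP90AA1, HSP90AB1, HSPA8, HSPH1 and DNAJB1, 1 point per animal, in controls (grey), after 6.7 Gy (blue) and after 7.4 Gy (red); horizontal lines are group means and vertical lines the SD. DNAJA1 lies between 3.01 and 3.59 on day 4 and between 1.77 and 2.80 on day 7, and the day 12 animals after 7.4 Gy have the lowest means for DNAJA1, HSP90AA1 and HSPA8, while HSPH1 has missing animals.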

How the data were processed

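Colon RNA of 24 animals was hybridised to Agilent 1-colour arrays. Per the file headers, the authors extracted spot intensity with Feature Extraction 11.0.1.1, and the deposited scanner files hold a background-subtracted signal. A deposited raw table repeats these intensities, and the authors' normalized table holds log2 values scaled to the 75th percentile and centred per probe. Here the log2 processed signal minus the array's 75th percentile was used. Outlier spots (24 to 712 per array) were left out and spots of a probe averaged. A probe entered if well above background on at least 2 of 24 arrays. No spot was saturated. Symbols came from the deposited tables; of 5034 probes with a LOC number, 3184 were renamed by gene ID through a RefSeq table (T2T-MMU8v2.0), used for names only. The number of arrays limits the precision of every value. In the main fit a p-value sets a difference against the spread between arrays within groups, pooled over all groups. With 1 array per animal, that spread mixes animal, slide, position and scan day.

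All 24 arrays entered a single limma 3.58.1 model (R 4.3.3; lmFit, contrasts.fit, eBayes) with a mean for each group, over 12 contrasts, and two-sided p-values were adjusted by Benjamini-Hochberg over all probes tested. Members, role lists and tests were chosen with earlier results of these data known. Values are given for members called in any contrast and for the member of each role list with the largest mean change on day 4; others by range, count or role. SESN2, DDIT3, HSP90AA1 and others outside this rule were named after their values were seen. The day 12 groups follow the sample labels, from which 1 treatment text differs. The fit was tested on simulated data. Alternatives were background correction, scaling, filters, blocks, separate tests and leaving out each array.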

Additional observations from a re-analysis of the deposited data

Results flagged for a closer look

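Among the 13 members given in full, 63 groups of 4 animals were examined for an animal far from the others, and 2 groups were flagged, where chance flags about 1 in 20. ERN2 measured -2.45 in 7.4 Gy day 4 replicate 2, above the other animals of that group. CREB3L2 measured -7.37 in control replicate 1, far below the other controls and not well above background.

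For several members the irradiated animals differed between days by the test of the difference itself. Array position and day cannot be told apart in these comparisons, and controls were not taken on days 7 and 12. Whether the effect of irradiation differed between days was therefore not tested. TRIB3 changed by -1.24 from day 4 to day 7 and by -1.70 from day 4 to day 12 on the log2 scale. CHAC1 changed by -1.52 and -1.70 in the same comparisons. From day 4 to day 12 ASNS changed by -1.39, ERN2 by 1.11 and DNAJA1 by -1.08.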

How the results depend on the processing

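Members called numbered 6 and 8 on day 4 after 6.7 and 7.4 Gy, 1 on day 7 after 7.4 Gy, 2 between day 7 and day 4 and 5 between day 12 and day 4. On day 4 after 6.7 Gy there were 2 with normexp, 3 with the slide block, 2 with the array position block, 2 with position and scan day blocks (added after seeing the data), 2 with the groups compared alone and 1 with the Benjamini-Hochberg adjusted methods' t-test. On day 4 after 7.4 Gy there were 4 with the position block, 1 with both blocks and 3 with the adjusted t-test. On day 7 after 7.4 Gy there were 2 with the filter on all 24 arrays, 0 with the slide block, 0 with the groups alone, 0 with the adjusted t-test and 3 with the unadjusted one, which called 4 on day 12 after 7.4 Gy. Between day 7 and day 4 there were 1 with normexp, 4 with spike-in scaling, 1 with the filter on all arrays and 20 without a fold minimum, and between day 12 and day 4 17 without it.

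Leaving out 1 array gave 2 to 6 members (fewest without control replicate 3 or 6.7 Gy replicates 2 or 4, and 3 without control replicate 1) and 4 to 8 (5 or fewer without 7.4 Gy replicates 1, 3 or 4) on day 4, 0 to 1 on day 7 after 7.4 Gy, 2 to 4 between day 7 and day 4 (4 without 7.4 Gy day 7 replicate 4) and 4 to 8 between day 12 and day 4 (8 without 7.4 Gy day 12 replicate 1). In the remaining comparisons with 0 calls, this gave 0. No called change of a member reversed under these settings, and changes that were not called were not checked for this. Within single scan days or slides the sign on day 4 turned for HSPB8 after 6.7 Gy (-0.59 on the first scan day), TRIB3 after 6.7 Gy (-0.08 on slide 1) and HSPD1 after 7.4 Gy (-0.16 on slide 3). Replicate numbers only name animals: the correlation of same-numbered animals averaged 0.0097, and 4 of 20 arrays correlated best with their own number. The correlation of arrays on the same slide averaged 0.134. The fit with the replicate block called 4 and 8 members on day 4, 1 on day 7 after 7.4 Gy, and 2 and 5 between days. The position block could not be fitted for days 7 and 12 against the controls or against day 4.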
